A study of Mus musculus with 2 samples.

Results

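The apolipoproteins and fatty acid binding proteins described here are the products of 8 genes: Apoe, Clu, Apod and Apoc1, which encode lipid carriers secreted by cells, Lrp1, which encodes a cell surface receptor for Apoe, and Fabp3, Fabp5 and Fabp7, which encode fatty acid binding proteins inside the cell. They were chosen by name, by matching the 8 symbols to the gene identifiers of the deposited tables, and all 8 matched 1 of the 43346 gene rows in each library. The tissue was the neural tube of newborn mice of the B6NCrl strain, taken at 0 days after birth. There were 2 libraries, 1 from the single neural tube of each of 2 littermates, called pup 1 and pup 2 after the labels. They form 1 group with n = 2 and no treatment, mutation or control group. The sex was not collected. RNA above 200 bases was kept, and 10 ng entered each library.

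Apolipoproteins coat lipid particles and carry cholesterol and phospholipids between cells. In brain and spinal cord the blood lipoproteins are largely kept out, and glial cells, above all astrocytes, make particles around Apoe that other cells take up through the receptors of a shared lipoprotein receptor family, of which Lrp1 is a member. Fatty acid binding proteins are small barrel-shaped proteins of the cytoplasm that hold long fatty acids and pass them to membranes, enzymes and nuclear receptors. Fabp7, also called brain lipid binding protein, is a classic marker of radial glia, the stem cells of the developing nervous system, and of astrocytes; Fabp5 is known from skin and from neurons and glia, and Fabp3 from heart muscle and neurons.

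The 3 fatty acid binding protein genes are relatives, and their coding sequences are shown because short reads can be assigned to 1 of them only where the letters differ. Each run gives 90 coding bases, 5′ to 3′, taken from the leading transcript of the gene in the GENCODE annotation of GRCm38, and capitals mark the 44 bases that are the same in all 3. The runs cover coding bases 5 to 94 of Fabp3 and of Fabp7 and coding bases 11 to 100 of Fabp5.
Fabp3: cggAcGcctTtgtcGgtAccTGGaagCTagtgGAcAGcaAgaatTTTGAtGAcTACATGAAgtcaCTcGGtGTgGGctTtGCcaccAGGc
Fabp5: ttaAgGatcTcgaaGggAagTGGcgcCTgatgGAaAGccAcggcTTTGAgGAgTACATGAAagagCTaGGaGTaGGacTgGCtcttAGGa
Fabp7: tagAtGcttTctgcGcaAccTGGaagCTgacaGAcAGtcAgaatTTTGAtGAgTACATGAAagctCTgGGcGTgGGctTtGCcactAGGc
Over the whole coding sequence, Fabp3 and Fabp7 were 66.4% identical, with 20 bases as their longest identical run. Fabp3 and Fabp5 were 56.5% identical, with a longest run of 10 bases, and Fabp5 and Fabp7 55.4%, with a longest run of 13. No stretch of 100 bases, the read-length window implied by the deposited effective lengths, was shared between these 3 genes.

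RefSeq promoter windows, each 250 bases before and 50 bases after an annotated start, were present for 5 of the 8 genes in the table for GRCm38.p6. Apoe has 3 such windows and Fabp7 has 1. For these 2 genes, the highest in level, the window of the most upstream start is shown, 5′ to 3′ in the direction of transcription, because their annotated starts differ in how much of the transcript signal they carried. Capitals mark matches, on either strand, to 4 motifs, the TATA box (letters TATAAA), the GC box (letters GGGCGG), the CAAT box (letters CCAAT) and the RBPJ core (letters TGGGAA), bound by the DNA-binding factor of the Notch pathway. In the windows shown, none of the matches overlap.
Fabp7, chr10:57784673-57784972, plus strand: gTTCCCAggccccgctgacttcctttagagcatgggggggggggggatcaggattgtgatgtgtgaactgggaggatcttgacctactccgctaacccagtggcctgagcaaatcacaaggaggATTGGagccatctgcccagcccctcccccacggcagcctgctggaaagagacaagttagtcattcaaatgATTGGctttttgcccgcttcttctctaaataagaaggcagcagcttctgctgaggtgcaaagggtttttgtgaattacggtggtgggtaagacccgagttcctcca
Apoe, chr7:19699139-19699438, minus strand: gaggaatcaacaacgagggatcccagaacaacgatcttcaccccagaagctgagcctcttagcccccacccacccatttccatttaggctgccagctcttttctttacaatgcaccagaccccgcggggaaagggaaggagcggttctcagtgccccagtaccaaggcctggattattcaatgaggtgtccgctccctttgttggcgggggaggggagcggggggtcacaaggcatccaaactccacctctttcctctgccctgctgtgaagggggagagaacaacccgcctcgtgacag
The Fabp7 window held CAAT box letters 126 and 56 bases before the start and the RBPJ core letters 249 bases before it, all 3 on the reverse strand. Among all 32851 windows of the table, 37.4% held the CAAT box, 25.6% the RBPJ core, 35.7% the GC box and 13.6% the TATA box, so each match is a common one and describes letters only. The Apoe window shown held none of the 4. Of the other Apoe windows, that of the start at chr7 position 19698621 held overlapping TATA box letters 100 and 96 bases before the start, and that of the start at 19698398 held the RBPJ core letters 8 bases after it; transcripts starting within 50 bases of these starts carried 0.03% and 0.01% of Apoe TPM for the first, and 0.230% and 0.180% for the other. In Fabp7, transcripts that start within 50 bases of this RefSeq start carried 100% of the gene's TPM in both pups. TPM is the deposited length-scaled abundance, which sums to the same total in each library. In Apoe, the only transcript starting within 50 bases of the start shown, Apoe-206, carried 7.44% in pup 1 and 8.90% in pup 2, and the leading transcript Apoe-209 starts 180 bases further downstream.

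Expected counts, the estimated read numbers, summed over gene rows to 26916916 for pup 1 and to 40003518 for pup 2, and 96 spike-in RNAs added 335 and 603. Mitochondrial genes took 6.60% and 7.51% of TPM. Markers of nervous tissue were present throughout: 7 of 7 neuron, 8 of 8 astrocyte, 8 of 8 radial glia and 9 of 9 microglia and macrophage markers reached a TPM of at least 1 in both pups. Among all 43346 gene rows, coding and noncoding, 35.5% reached that level in both. Other tissues were also represented, with 9 of 9 meningeal fibroblast markers, 5 of 7 Schwann cell markers, 5 of 9 sensory ganglion markers, 8 of 8 endothelial and 5 of 8 skeletal muscle markers at that level. Hepatocyte markers reached it in both pups in 0 of 6 cases, adipocyte markers in 2 of 7 and choroid plexus markers in 2 of 7. In 1 pup only, 3 hepatocyte markers and 1 choroid plexus marker reached it, among them Alb at 2.89 TPM in pup 1 and 0.790 TPM in pup 2. The choroid plexus transcription factor gene Otx2 was at 0 in both. Between the pups, 9 of 9 testable oligodendrocyte and myelin markers and 9 of 9 meningeal fibroblast markers were higher in pup 2 under TMM (trimmed mean of M-values) scaling, with median log2 ratios of 0.54 and 0.40, as were 50.3% of all 13544 genes tested. Under spike-in scaling 6 of 9 and 8 of 9 of them were higher, with medians of 0.25 and 0.11, against 6.48% of all genes. The median of the sensory ganglion markers was 1.70 under TMM and 1.41 under spike-in scaling.

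All 8 genes were detected in both pups at a TPM of at least 1, a level that 35.5% of all gene rows reached. Those rows include noncoding genes and pseudogenes, while all 8 genes are protein-coding, so the shares are not like for like. The share over protein-coding genes alone was not computed. Levels of the 8 genes spanned from Apoe, which ranked 8th among 21461 nuclear protein-coding genes by mean TPM, to Apoc1, which ranked 5991st. Together they took 7202 TPM in pup 1 and 7245 TPM in pup 2, or 0.892% and 0.909% of the TPM of nuclear protein-coding genes. The 4 apolipoprotein genes summed to 3634 and 3797 TPM and the 3 fatty acid binding protein genes to 3479 and 3379 TPM, so the secreted and the intracellular carriers stood at similar summed levels. Each family was led by 1 gene: Apoe made up 90.1% and 87.8% of the apolipoprotein sum, and Fabp7 64.9% and 63.0% of the fatty acid binding protein sum.

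**Figure D1:**
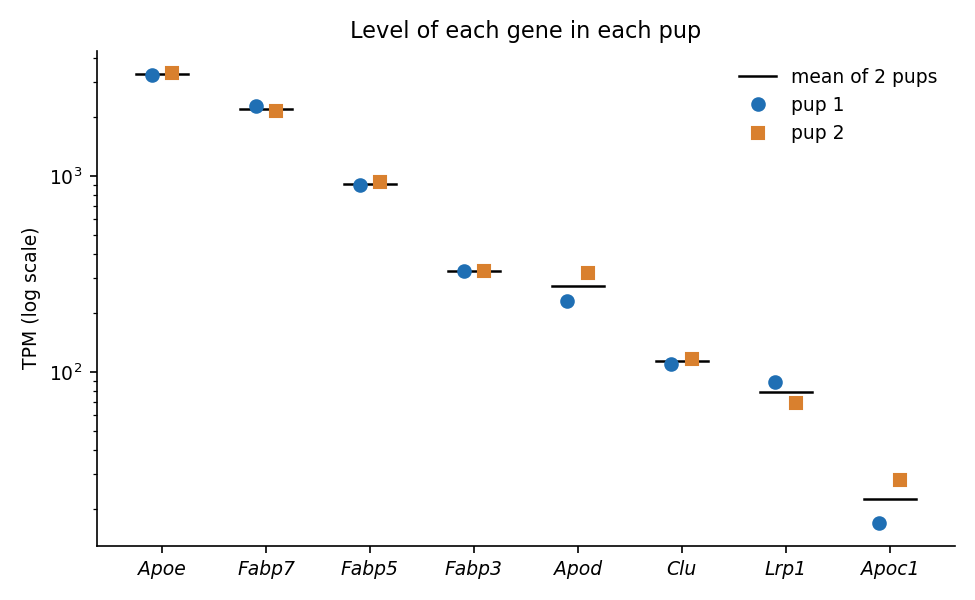
Level of each of the 8 genes in each pup, as TPM on a log axis. Circles are pup 1, squares pup 2 and bars the mean of both; Apoe and Fabp7 are the highest in both pups, and the 2 points lie furthest apart for Apod, Lrp1 and Apoc1.

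Apoe is the main apolipoprotein of the nervous system and a ligand of Lrp1 and its relatives. The gene (ENSMUSG00000002985.11) lies at chr7:19696109-19699188 on the minus strand of mm10. Its level was 3276 TPM in pup 1 and 3335 TPM in pup 2, from 56509 and 89702 expected counts. The pups nearly coincided, with a mean of 3305 ± 41.9 TPM (SD, n = 2). The genes next to it by mean TPM were Ftl1, the ferritin light chain, at 3379 ± 177 TPM and Ubb, a ubiquitin gene, at 3134 ± 6.63 TPM (SD, n = 2). In pup 1 Apoe was above Ftl1, at 3254 TPM, and in pup 2 below it, at 3505 TPM, so the order of these neighbours was not the same in both libraries.

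Apoc1, a small apolipoprotein that rides on the same particles and is known to hold back lipoprotein uptake, is encoded beside Apoe, with 3448 bases between the genes. Apoc1 (ENSMUSG00000040564.9) lies at chr7:19689481-19692660, also on the minus strand. Its level was 16.9 TPM in pup 1 and 27.9 TPM in pup 2, from 96 and 248 expected counts, with a mean of 22.4 ± 7.79 TPM (SD, n = 2). It was the lowest of the 8 genes in both pups, at the level of 2310022A10Rik and of B4galnt4, its neighbours by mean TPM at 22.4 ± 0.424 and 22.4 ± 3.17 TPM (SD, n = 2). Apoe exceeded Apoc1 194-fold in pup 1 and 120-fold in pup 2 although the genes adjoin. The other apolipoprotein genes of that chromosomal cluster, Apoc2 and Apoc4, were at 0.710 ± 0.212 and 0.210 ± 0.156 TPM (SD, n = 2), from 7 counts in each pup for Apoc2 and 2 and 1 for Apoc4.

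Clu encodes clusterin, also called apolipoprotein J, a secreted chaperone that travels on lipid particles and binds misfolded proteins. It (ENSMUSG00000022037.10) lies at chr14:65968483-65981547 on the plus strand. Clu stood at 110 TPM in pup 1 and 116 TPM in pup 2, from 3154 and 5135 expected counts. The mean was 113 ± 3.71 TPM (SD, n = 2), and Apoe exceeded it 29.7-fold and 28.9-fold, a ratio that barely moved between the libraries. Its neighbours by level were Sat1, a polyamine acetyltransferase gene, and Msmo1, an enzyme gene of cholesterol synthesis, both at 113 TPM with SDs of 5.82 and 11.0 (n = 2).

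Apod encodes a lipocalin, unrelated in fold to Apoe, Apoc1 and Clu, that binds arachidonic acid and other small lipids. It (ENSMUSG00000022548.10) lies at chr16:31296192-31314808 on the minus strand. Its level was 231 TPM in pup 1 and 318 TPM in pup 2, from 3776 and 8069 expected counts. Pup 2 was the higher, and the mean was 275 ± 61.8 TPM (SD, n = 2), the largest SD relative to its mean among the 8 genes after that of Apoc1. Rack1, a ribosome-bound scaffold gene, and Tbca, a tubulin chaperone gene, stood next to it by mean TPM at 276 ± 8.78 and 275 ± 9.62 (SD, n = 2). Apoe exceeded Apod 14.2-fold in pup 1 and 10.5-fold in pup 2, and 65.7-fold and 63.3-fold over protein-coding transcripts alone.

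Lrp1 is a very large endocytic receptor that takes up Apoe particles and many other ligands. The gene (ENSMUSG00000040249.11) lies at chr10:127538161-127621148 on the minus strand, and its full-length transcript has 14888 bases in 89 exons. Its level was 89.2 TPM in pup 1 and 69.1 TPM in pup 2, from 8275 and 10004 expected counts. Pup 1 was the higher here, with a mean of 79.1 ± 14.2 TPM (SD, n = 2), between Pacsin1 and Tssc4 at 79.2 ± 1.36 and 79.1 ± 7.22 TPM (SD, n = 2). Apoe, the ligand, exceeded this receptor 36.7-fold and 48.3-fold in TPM. Over protein-coding transcripts alone the ratio was 101 and 133, and by counts not divided by length 6.83 and 8.97.

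Fabp7 (ENSMUSG00000019874.7), at chr10:57784881-57788450 on the plus strand, was the highest of the fatty acid binding protein genes. It stood at 2259 TPM in pup 1 and 2129 TPM in pup 2, from 27492 and 39897 expected counts, with a mean of 2194 ± 92.3 TPM (SD, n = 2). This put it 17th among nuclear protein-coding genes by mean TPM, between the calmodulin gene Calm2 at 2634 ± 105 and the ribosomal protein gene Rpl41 at 2184 ± 122 TPM (SD, n = 2). Rpl41 was lower than Fabp7 in pup 1, at 2098 TPM, and higher in pup 2, at 2270 TPM. Other radial glia markers were well below Fabp7: the highest were Ptn, a secreted growth factor gene, at 355 ± 3.68 TPM, and the intermediate filament gene Vim at 325 ± 5.70 TPM (SD, n = 2).

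Fabp5 (ENSMUSG00000027533.10), at chr3:10012548-10016607 on the plus strand, followed at 894 TPM in pup 1 and 925 TPM in pup 2, from 14017 and 22270 expected counts. Its mean of 910 ± 21.5 TPM (SD, n = 2) put it 87th, level with the neurofilament gene Nefl at 913 ± 15.7 and the neuronal gene Ndn at 910 ± 65.2 TPM (SD, n = 2). Fabp3 (ENSMUSG00000028773.8), at chr4:130308595-130315463 on the plus strand, was at 326 TPM in pup 1 and 325 TPM in pup 2, from 4065 and 6261 expected counts, a mean of 325 ± 0.0424 TPM (SD, n = 2). An SD from 2 libraries is poorly determined, and this one gives little measure of the spread between pups. Phyhipl and the lysosomal membrane protein gene Lamp1 stood beside it at 326 ± 13.6 and 325 ± 5.71 TPM (SD, n = 2). Within each library, Fabp7 exceeded Fabp5 2.53-fold and 2.30-fold, and Fabp5 exceeded Fabp3 2.75-fold and 2.84-fold.

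From highest to lowest by mean TPM the order was Apoe, Fabp7, Fabp5, Fabp3, Apod, Clu, Lrp1 and Apoc1, and it was the same in each pup. The ranges over the pups did not overlap between any neighbours in it. Fabp3 and Apod were the exception by the deposited intervals: in pup 2 the interval was 311 to 327 TPM for Fabp3 and 305 to 320 TPM for Apod, and the ratio of their TPM was 1.41 in pup 1 and 1.02 in pup 2. In pup 1 the intervals, 305 to 325 TPM and 217 to 232 TPM, did not overlap. These 2 genes were thus separated in pup 1 but not in pup 2. The deposited intervals belong to the posterior mean estimate of TPM, and the TPM itself lay outside its interval for 4 of the 8 genes in pup 1 and 3 in pup 2, against 6.83% and 4.32% of the 15963 genes with a mean TPM of 1 or more; for Apoe in pup 1 the interval was 3140 to 3206 TPM, below its 3276 TPM. By mean expected counts not divided by length, Lrp1 came directly after Fabp5, and Fabp3 came after Apod, although in pup 1 Fabp3 had more counts than Apod. Over protein-coding transcripts alone, an alternative for the order added after seeing the data, Clu came before Apod, at 108 and 114 TPM against 46.9 and 50.7 TPM.

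Some reads of Fabp3 and Fabp5 could not be assigned from sequence alone. Of the 724 windows of 100 bases in Fabp3-201, 157 (21.7%) also occur in the processed pseudogene Fabp3-ps1, to which the deposited tables gave 53.8 and 82.3 counts. Of the 888 windows in Fabp5-201, 80 (9.01%) also occur in a pseudogene, Gm6166 or Gm14328, which held 67.6 and 124 counts and 9.07 and 16.9 counts. These pseudogene counts are small beside the 4065 and 14017 counts of Fabp3 and Fabp5 in pup 1, but how the shared reads were divided was the authors' estimation. The other 6 genes shared no such window. Fabp3 also overlaps Zcchc17 on the opposite strand, with 1825 and 2857 counts over the whole gene, and Gm10570, with 10 and 20. With either strand searched, Fabp3 shared no window of 100 bases with these genes, but it shared windows of 50 bases with both. The strand setting of the counting is not given in the sources used here.

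Transcript shares are the deposited percent of a gene's TPM given to each of its transcripts. The 8 genes have 42 transcripts in the deposited tables, of which 3 had 0 counts in both pups, and 7 genes have more than 1. In these 7 of 7 genes the same transcript led in both pups, as it did in 91.9% of 8240 protein-coding genes that have several transcripts and average 5 TPM or more. In 2 of the 7, Apod and Lrp1, the leader was annotated as a retained intron, a class with no annotated coding sequence, against 3.09% of those 8240 genes.

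**Figure D2:**
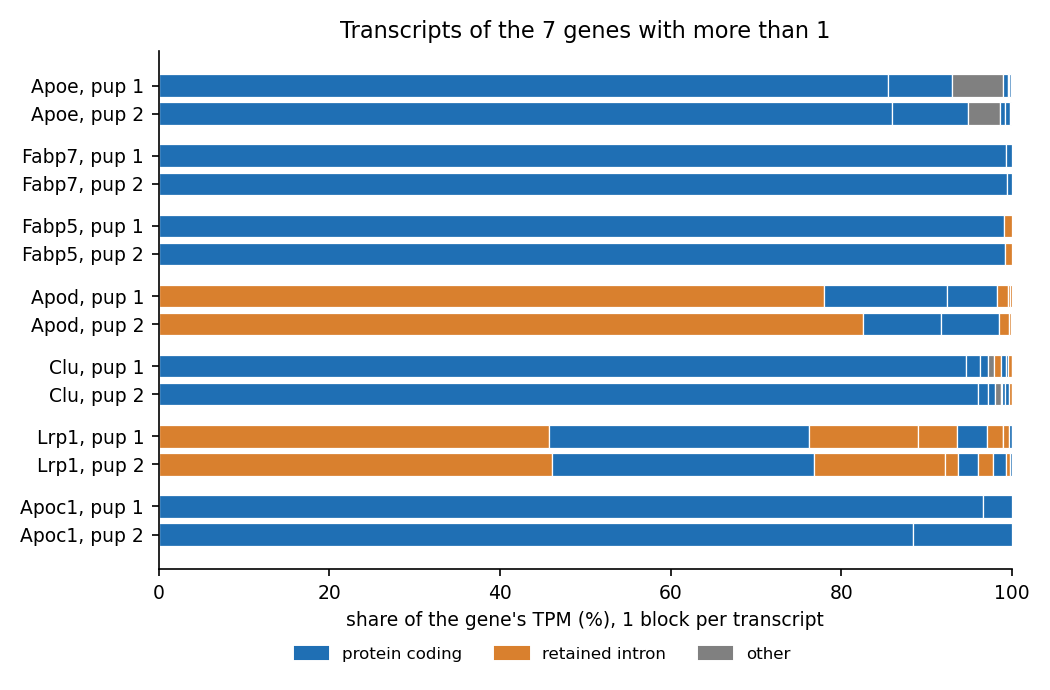
Share of each gene's TPM, in percent, given to each of its transcripts in each pup, for the 7 genes with more than 1 transcript. Each block is 1 transcript, coloured by its annotated class; retained intron blocks lead in Apod and Lrp1 in both pups, and protein-coding blocks lead in the other 5 genes.

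In Apod, the retained intron transcript Apod-201 carried 78.00% of TPM in pup 1 and 82.58% in pup 2, or 180 and 263 TPM. The coding transcripts Apod-202 and Apod-203 carried 14.42% and 5.87% in pup 1 and 9.17% and 6.74% in pup 2. Protein-coding transcripts together held 46.9 TPM in pup 1 and 50.7 TPM in pup 2, so nearly all of the difference in Apod between the pups was in Apod-201. Although the annotation gives it no coding sequence, its 979 bases include all 567 coding bases of Apod-202. The 83 bases of it that are in no exon of Apod-203 fill the intron between the first 2 exons of Apod-203, upstream of the coding part. It also led by expected counts, with 72.4% and 76.2% of the gene's counts.

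In Lrp1, the short retained intron transcript Lrp1-208 carried 45.74% of TPM in pup 1 and 46.14% in pup 2, or 40.8 and 31.9 TPM. It has 763 bases in 3 exons, of which 728 lie in exons of the full-length Lrp1-201, and it ends 438 bases before the 3′ end of the gene. Lrp1-201, which encodes the receptor, carried 30.49% and 30.67% of TPM, or 27.2 and 21.2 TPM. By expected counts the order was the reverse: Lrp1-201 held 83.8% and 83.2% of the counts of the gene and Lrp1-208 held 5.65% and 5.62%, 467 and 562 counts. Counting protein-coding transcripts alone, Lrp1 stood at 30.6 TPM in pup 1 and 24.1 TPM in pup 2. Lrp1-204, a retained intron transcript with 15 exons that begins at the 5′ end of the gene, carried 12.82% and 15.42%.

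**Figure D3:**
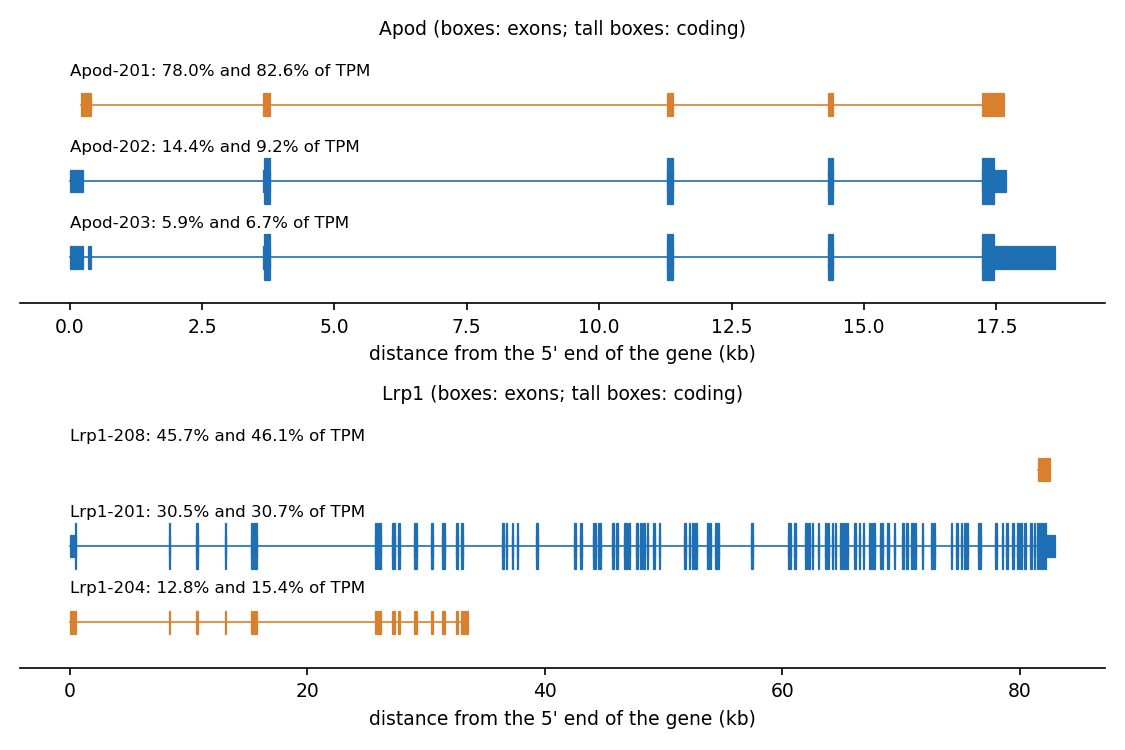
Exons of the 3 leading transcripts of Apod and of Lrp1, against the distance in kb from the 5′ end of the gene; tall boxes are coding, orange transcripts are annotated as retained introns, and the percents are shares of TPM in pup 1 and pup 2. Apod-201 spans nearly the same exons as the coding transcripts below it, while Lrp1-208 covers only the 3′ end of the gene.

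The remaining genes were led by coding transcripts. In Apoe, Apoe-209 carried 85.53% and 85.92%, and Apoe-206, with the start shown above, 7.44% and 8.90%. Both hold the same 933 coding bases, and 37 of the 1104 bases of Apoe-209 are not in Apoe-206. The noncoding Apoe-202 carried 6.05% in pup 1 and 3.80% in pup 2. Clu-201 carried 94.63% and 96.10% of Clu, Fabp5-201 99.09% and 99.20% of Fabp5 and Fabp7-201 99.38% and 99.45% of Fabp7. Fabp3 has 1 transcript. In Apoc1, Apoc1-201 carried 96.62% in pup 1 and 88.46% in pup 2, and the rest went to Apoc1-202, which rests on only 3.81 and 33.1 counts.

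The design holds no contrast, so the libraries were set side by side without a test. The log2 ratio, pup 2 minus pup 1, was taken on counts scaled by TMM, and its 95% interval covers counting error in 1 library a side, not the spread between animals. Among all 13544 genes whose mean count was 100 or more, 0.473% (64) lay past 2-fold, 56 of them higher and 8 lower in pup 2, and 0 of the 8 genes did. That split, 87.5% higher, became 51.7% (30 higher, 28 lower) when the libraries were scaled by spike-in totals and 79.5% on the TPM scale. The 5th and 95th percentiles of those genes were -0.29 and 0.34, and Apod and Apoc1 lay outside that range. The median over the 8 genes was 0.11 and over all genes 0.00. Spike-in totals shifted every log2 ratio by -0.29, with -0.49 to -0.10 as the counting interval of that shift.

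**Figure D4:**
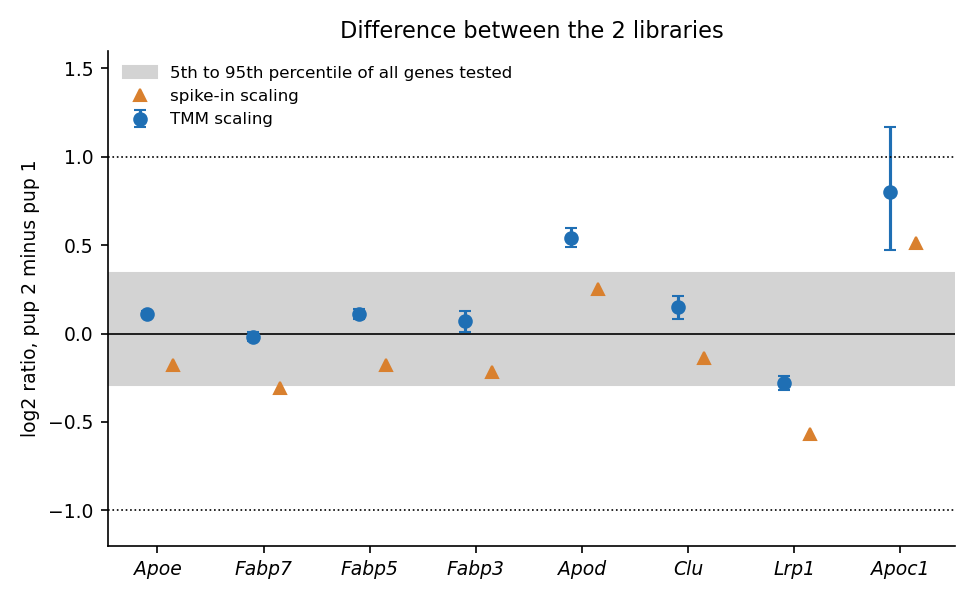
Log2 ratio of each gene, pup 2 minus pup 1, under TMM (circles, with 95% counting intervals) and under spike-in scaling (triangles). The grey band is the range of all tested genes from the 5th to the 95th percentile, and dotted lines mark 2-fold; under TMM only Apod and Apoc1 lie above the band and none of the 8 genes passes 2-fold.

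Apod was 1.45-fold higher in pup 2, a log2 ratio of 0.54 with an interval of 0.49 to 0.60, and 0.25 under spike-in scaling. Some markers of cells known to express Apod were also higher in pup 2 under TMM, those of oligodendrocytes and myelin and of meningeal fibroblasts. Over the 10 oligodendrocyte and myelin markers the summed level was 599 TPM in pup 1 and 931 TPM in pup 2, with the myelin genes Mag and Mobp among those past 2-fold, at log2 ratios of 1.02 and 2.44. Over the 9 meningeal fibroblast markers it was 1869 and 3361 TPM, with the prostaglandin D synthase gene Ptgds, another lipocalin, past 2-fold at 922 and 2190 TPM. Most of the difference in that sum lay in Ptgds. The Schwann cell markers were not higher as a list. All 7 summed to 203 and 202 TPM, and of the 4 tested 2 were higher in pup 2, with a median log2 ratio of -0.12 under TMM. The part of these markers in the Apod ratio was not tested, and in bulk tissue fewer cells of a type and less RNA per cell cannot be told apart.

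Apoc1 was 1.75-fold higher in pup 2, with a log2 ratio of 0.80 and the widest interval of the 8 genes, 0.47 to 1.17, since it rests on 96 and 248 counts; under spike-in scaling the ratio was 0.51. Macrophages are a known source of Apoc1, and the 9 microglia and macrophage markers summed to 277 TPM in pup 1 and 294 TPM in pup 2. Under TMM they had log2 ratios of -0.04 to 0.28 and a median of 0.09. The complement genes C1qb and C1qa, the highest of that list, had TMM ratios of 0.25 and 0.04. Of the 9 markers, 7 were higher in pup 2 under TMM, beside 50.3% of all genes tested. With spike-in scaling 0 of the 9 were higher, with a median of -0.20, beside 6.48% of all genes. The part of these cells in the Apoc1 ratio was not tested.

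Lrp1 was 1.21-fold lower in pup 2, with a log2 ratio of -0.28, an interval of -0.32 to -0.24 and a spike-in value of -0.57. Long transcripts as a class were lower in pup 2 under TMM. Of the 303 tested genes whose longest transcript has at least 10 kb, 79.5% were lower, beside 6737 of all 13544 genes tested. Their median was -0.12 and their 5th percentile -0.38. Genes under 1 kb, with Fabp7, Fabp3 and Apoc1 among them, had a median of 0.11 over 759 genes, also under TMM. By spike-in scaling the length classes were not computed, and only 6.48% of all genes were higher in pup 2. The part of transcript length in the Lrp1 and Apoc1 ratios was not tested.

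The other 5 genes differed little between the libraries under TMM. Apoe had a log2 ratio of 0.11 (0.10 to 0.13), Fabp5 0.11 (0.08 to 0.14), Clu 0.15 (0.08 to 0.21), Fabp3 0.07 (0.01 to 0.13) and Fabp7 -0.02 (-0.04 to 0.01), all inside the central range of all genes. Under TMM 6 of the 8 genes were higher in pup 2 and 2 lower, beside 50.3% higher among all genes tested, but under spike-in scaling 2 were higher and 6 lower, beside 6.48% higher among all genes, with Apoe at -0.18, Fabp5 at -0.18, Clu at -0.14 and Fabp3 at -0.22 changing sign. Fabp3 was at -0.00 on the TPM scale. For these 4 genes the direction between the pups depended on the scaling. The astrocyte markers, whose cells are known to make Apoe and Clu, summed to 1780 and 1785 TPM. Their median log2 ratio was 0.03 under TMM, and the radial glia markers had a median of -0.02. With spike-in scaling the medians were -0.27 and -0.31, beside -0.29 over all genes tested.

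Apart from the 8 genes, 92 genes of lipid transport in 7 lists were examined, and 65 were detected in both pups. Over all gene rows, coding and noncoding, 35.5% were, which is the share to set beside each list below. Not all of the 92 genes averaged 100 counts or more. Of those that did, none passed 2-fold between the pups, beside only 0.473% of all genes at that count. With so low a share over all genes, none in so small a set says little about the lists. Other apolipoprotein genes were mostly near 0: 5 of 19 were detected, with a median of 0.320 TPM. The highest was Apoo, which despite its name is a subunit of a mitochondrial inner membrane complex, at 93.9 ± 12.7 TPM, followed by Apoa2 at 10.6 ± 3.95 and Apool, the relative of Apoo, at 10.5 ± 1.34 TPM (SD, n = 2). Apob, the structural protein of blood lipoproteins from liver and gut, held 5 counts in each pup. The lowest was Apol7a, with 0 and 1 counts.

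Among 12 other genes of intracellular lipid binding proteins, 6 were detected in both pups. They were led by Crabp1, a cytoplasmic retinoic acid binding protein gene, at 395 ± 22.1 TPM (SD, n = 2), and its relative Crabp2 was at 37.9 ± 11.8 TPM (SD, n = 2). Crabp1 was thus above Fabp3 in level, and the log2 ratio of Crabp2 between the pups was 0.71. Fabp4, the adipocyte and endothelial form, was at 5.99 and 3.61 TPM, and Pmp2, the fatty acid binding protein of peripheral myelin, at 5.05 and 4.57 TPM. Fabp1, the liver form, passed a TPM of 1 in pup 1 but not in pup 2, at 1.53 and 0.410 TPM from 12 and 5 counts. Fabp2, Fabp9 and Fabp12 had 0 counts in both pups, which allows up to 3 counts, or 0.111 and 0.0750 CPM (counts scaled to library totals), and covers counting error only.

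Genes of the lipoprotein receptor family and its helpers were detected in 16 of 18 cases, with a median of 13.0 TPM. Lrpap1, a chaperone that keeps Lrp1 and its relatives from binding ligands on the way to the surface, was at 163 ± 12.8 TPM, and Mesd, another chaperone of the family, at 70.4 ± 4.26 TPM (SD, n = 2). Among the receptors, Lrp1 at 79.1 ± 14.2 TPM was followed by Lrp11 at 49.7 ± 3.34 and by Lrp8, an Apoe and reelin receptor, at 36.8 ± 5.03 TPM (SD, n = 2). Vldlr stood at 16.9 ± 0.219 and Lrp2 was lowest at 0.235 ± 0.0212 TPM (SD, n = 2). Summed over protein-coding transcripts alone, a comparison added after the values were seen, Lrp1 was the second of the 14 receptors: Lrp11 led with 47.4 and 52.1 TPM, and Lrp1 had 30.6 and 24.1 TPM. Lrp10 followed with 25.4 TPM in each pup, within the range of Lrp1, and Lrp8 with 21.3 and 17.1 TPM.

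**Figure D5:**
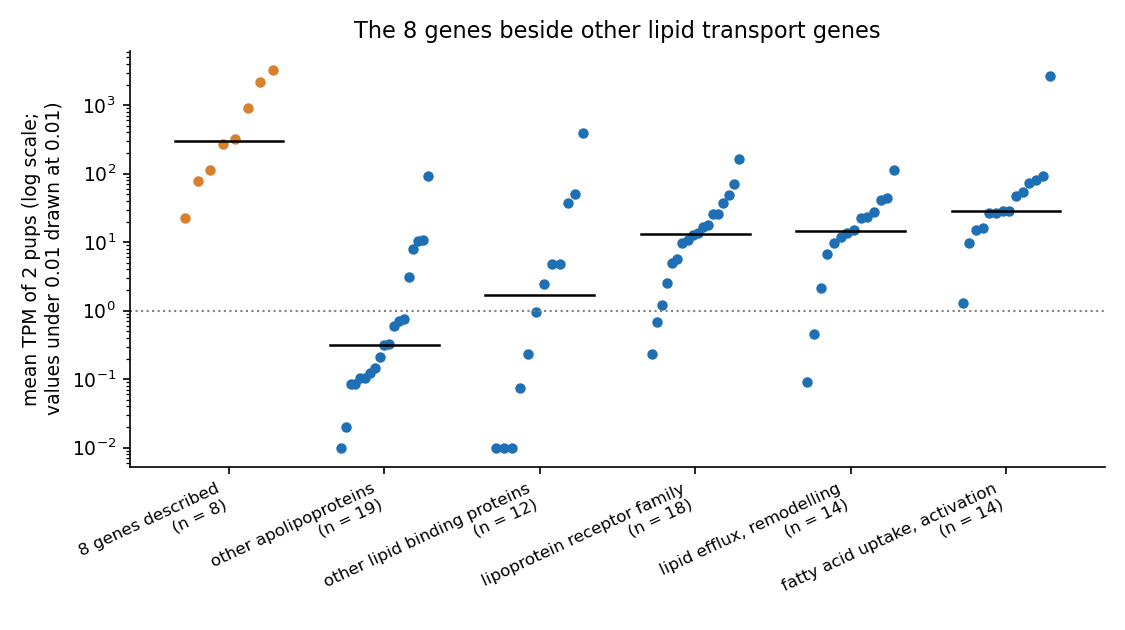
Mean TPM over both pups on a log axis for the 8 genes and 5 lists of related genes; each point is a gene, bars are list medians, the dotted line is a TPM of 1, and values under 0.01 are drawn at 0.01. The 8 genes lie between 22.4 and 3305 TPM, most other apolipoprotein genes lie under 1 TPM, and Dbi in the fatty acid uptake list stands beside Fabp7.

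Genes of lipid efflux and lipoprotein remodelling, which load and reshape the particles, were detected in 12 of 14 cases, with a median of 14.4 TPM. The phospholipid transfer protein gene Pltp led at 112 ± 4.88 TPM, followed by the scavenger receptor gene Scarb1 at 44.8 ± 2.29 and the lysosomal cholesterol transporter gene Npc2 at 40.9 ± 0.339 TPM (SD, n = 2). Abca1, the transporter that loads lipid onto Apoe, was at 9.97 and 9.21 TPM, and its relatives Abcg1 and Abcg4 at 23.4 ± 0.0990 and 22.9 ± 1.39 TPM (SD, n = 2). The hepatic lipase gene Lipc was lowest at 0.0900 TPM. Genes of fatty acid uptake and activation, which supply the cargo of fatty acid binding proteins, were detected in 14 of 14 cases, with a median of 28.4 TPM. Dbi, the acyl-CoA binding protein gene, reached 2618 TPM in pup 1 and 2786 TPM in pup 2, above Fabp7 in both. Next were the fatty acid transporter gene Slc27a1 at 91.8 ± 4.53 and the acyl-CoA synthetase gene Acsl3 at 79.8 ± 2.26 TPM, and Cd36, a fatty acid receptor gene, was lowest at 1.31 ± 0.0141 TPM (SD, n = 2).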

How the data were processed

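Total RNA libraries of 2 pups gave 1 gene and 1 transcript table each. Per the file headers, these hold the authors' expected counts, which need not be whole, with TPM, FPKM, posterior mean estimates, bounds of a TPM interval (a signal that is never negative) and, for transcripts, the percent of the gene's TPM. Per the deposited notes, reads were mapped to mm10 with the GENCODE M4 annotation; which aligner, tool version and strand setting were used is not given in the sources used here. For symbols, exons and transcript sequences the GENCODE M21 release for GRCm38 was used, which is the build of mm10. It named 42462 of 43346 gene rows; unnamed rows took 0.176% of either pup's counts. Of the 42 transcripts, 38 had the same length in both annotations. Promoter windows came from RefSeq.

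Rounding made the expected counts whole. TMM factors (edgeR 4.0.16, R 4.3.3) used genes averaging 10 counts or more, and log2 ratios a prior count of 2; DESeq2 1.42.0 gave alternative size factors. With 1 library a side no p-value was computed, and the spread of 2 littermates was all the error there was. The ratio step was tested on simulated data. Identity between family members was planned on proteins and was done on coding sequences. Sharing was counted over windows of 100 bases. Sequence steps ran in Biopython 1.88 under Python 3.11.15, tables in pandas 2.3.3 and numpy 2.4.6, intervals in scipy 1.17.1 and figures in matplotlib 3.10.9. The 8 genes, the 7 functional lists and the 13 marker lists were chosen with earlier results of these data known. Named genes were the 8 genes, the next protein-coding gene above and below each by mean TPM, the 3 highest and the lowest of each functional list with any gene detected in 1 pup only, the 2 highest marker genes and those past 2-fold, and genes sharing windows with or overlapping the 8; further genes were named after their values were seen. Some genes under this rule were left out of the text.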

Additional observations from a re-analysis of the deposited data

How the results depend on the processing

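The order of the 8 genes by level was the same with posterior mean TPM and with either pup left out. With expected counts 5 of the 8 kept their place, and over protein-coding transcripts alone, added after seeing the data, 6, since Clu and Apod changed places. The summed level of the 8 genes, 7223 TPM on average, was 7036 with posterior mean TPM, 4714 FPKM, 9004 TPM when rescaled over nuclear protein-coding genes, and 6774 TPM over protein-coding transcripts alone, where Apod fell to 48.8 and Lrp1 to 27.3. Leaving out a pup gave 7202 and 7245 TPM. None of the 8 genes passed 2-fold under the 7 alternatives tried for the log2 ratio, and the 4 sign changes under spike-in scaling are given above. Genes past 2-fold numbered 430, not 64, at a mean count of 10 or more. Genes led by a retained intron numbered 1, Apod, by share of expected counts. With windows of 50 bases 3 of the 8 genes, not 2, shared sequence with another gene, Apod being the third. Of the 92 list genes, 51 to 70 were detected under the other thresholds and units tried. No paired analysis was possible because the 2 pups form 1 group. Depth limits Apoc1 most, and with n = 2 no difference between pups can be tested.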

Other observations

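Lipid-sensing nuclear receptors, some of which fatty acid binding proteins are known to supply with ligands, were mostly low: 7 of 8 were detected in both pups, with a median of 2.92 TPM. Nr1h2, the liver X receptor beta gene, whose product drives Apoe and Abca1 transcription in other settings, was highest at 40.0 ± 2.51 TPM, followed by its partner genes Rxrb at 39.7 ± 0.587 and Rxrg at 21.5 ± 3.21 TPM (SD, n = 2). The other liver X receptor gene, Nr1h3, was at 1.85 ± 0.255 TPM, and Ppara, Ppard and Pparg at 2.54 ± 0.0636, 1.59 ± 0.247 and 0.550 ± 0.0424 TPM (SD, n = 2).

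Receptors by which myeloid cells sense lipids and lipoproteins were detected in 5 of 7 cases in both pups. The signalling adaptor gene Tyrobp led at 58.1 ± 5.84 TPM, followed by the receptor genes Axl at 30.0 ± 0.148 and Stab1 at 12 ± 0.820 TPM (SD, n = 2). Trem2, a receptor that binds Apoe and Clu, was at 10.7 TPM in pup 1 and 10.4 TPM in pup 2. Msr1, a macrophage scavenger receptor gene, passed a TPM of 1 in pup 2 but not in pup 1, at 0.920 and 1.63 TPM from 33 and 99 counts. Olr1 was lowest, with 0 and 2 counts.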
